A study of Mus musculus with 6 samples.

Results

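The genes described here encode the receptors and ligands with which the retinal pigment epithelium (RPE) binds and engulfs shed photoreceptor outer segments. The list named 10 genes, and a gene was measured where the array's annotation gave at least 1 probe set that symbol alone. This held for 9 of the 10, namely Mertk, Tyro3, Axl, Gas6, Pros1, Mfge8, Itgav, Itgb5 and Cd36, among 18193 genes in all. Ptk2, the focal adhesion kinase gene, was not analysed here. Expression was measured with 6 Affymetrix arrays of RPE RNA from BALB/c mice, an albino strain. The 3 dark-adapted arrays came from mice kept in darkness for 1 week. The 3 light-damaged arrays came from mice that had the same week of darkness, then 1.5 h of white fluorescent light at 6000 lux, and whose RPE was taken 24 h later. Age and genotype beyond the strain, and whether a sample was 1 animal or a pool, are not stated by the labels, so p-values measure the spread between these samples only.

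Each RPE cell faces many photoreceptors, whose outer segment tips are shed daily and taken up by the RPE. Phosphatidylserine exposed on the shed tip is bridged to the RPE surface by secreted ligands. MFG-E8, the product of Mfge8, links it to the integrin αvβ5 (Itgav and Itgb5), which serves binding, and GAS6 and protein S (Pros1) link it to the receptor tyrosine kinase MERTK, which drives ingestion. Loss of MERTK in animals and people leads to retinal degeneration. TYRO3 and AXL are the other kinases of this receptor family, called TAM, and CD36 is a scavenger receptor for oxidised lipids that also takes part in uptake.

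Of the 9 measured genes, Pros1 was higher after light damage and no gene passed as lower. Values are log2 expression, differences are light-damaged minus dark-adapted, and each is given ± its standard error with n = 3 per group. A gene was called where its limma p, adjusted by Benjamini-Hochberg over every gene measured, was under 0.05 in a fit that took the replicate number as a pair. By this rule 4.99% of all genes were called, 3.07% as rising and 1.92% as falling, and 1 of 9 genes (11.1%) is the smallest share above 0 that this list can give. Without the pairing 0.0495% of all genes were called and none of the 9. The median difference was -0.10 over the 9 genes and -9.4e-05 over all genes. Members with an unadjusted p under 0.05 were Pros1, Cd36 and Mertk, which is 33.3% against 19.0% of all genes. Without the pairing these were Pros1 and Cd36, 2 of 9, against 5.94% of all genes. The same 3 genes went one way in all 3 pairs, as 40.7% of all genes did.

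**Figure D1:**
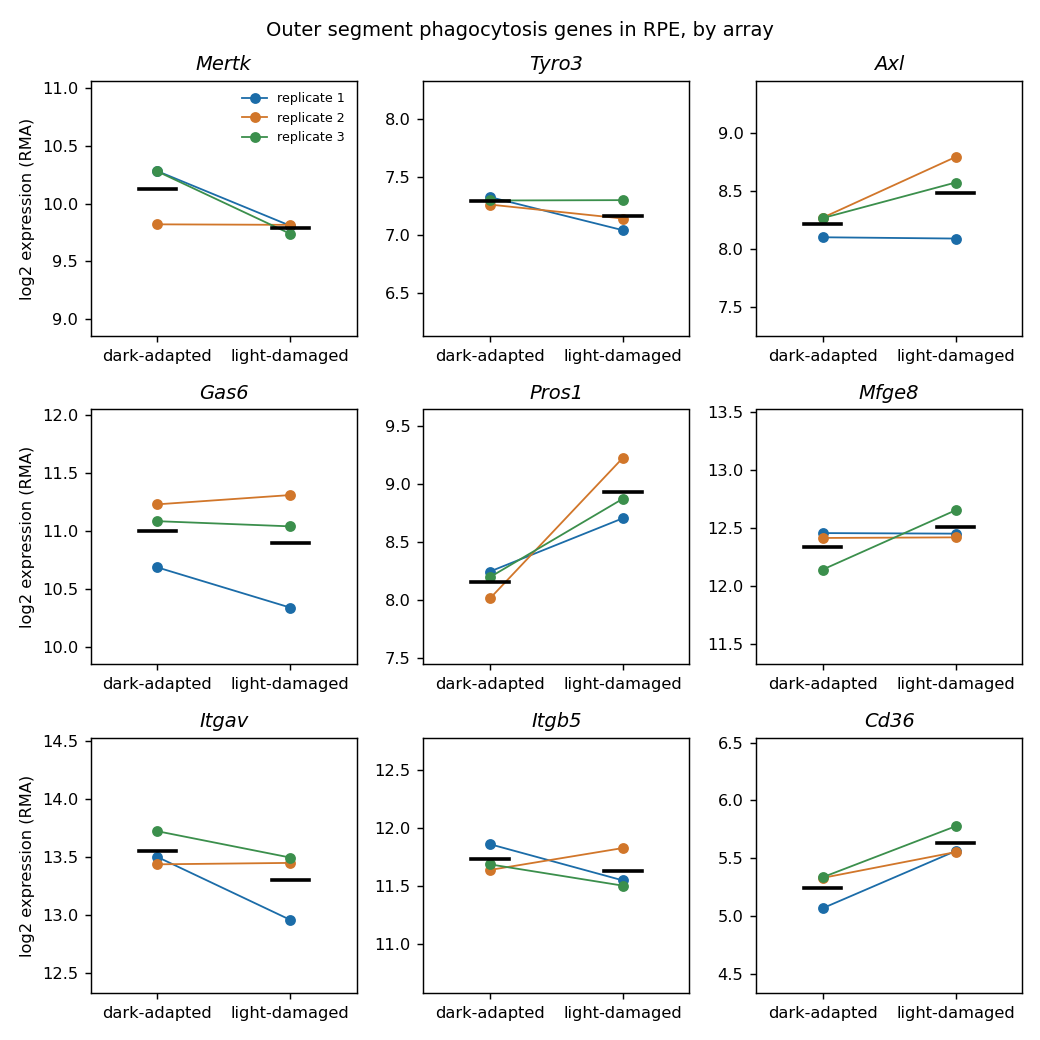
Log2 expression (RMA) of the 9 measured genes on each array, dark-adapted on the left and light-damaged on the right of each panel, with lines joining arrays of the same replicate number and black bars at the group means. Every vertical axis spans the same log2 range around the gene's mean. The group means differ most for Pros1, with dark-adapted arrays at 8.01 to 8.24 and light-damaged arrays at 8.70 to 9.22.

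In each group the replicate 1 array differed most from the rest. On the first principal component, which took 74.4% of the variance, they lay at -38.60 and -68.73 and the others between 18.76 and 34.02. The Gapdh control probe sets, whose 3′ minus 5′ difference reflects RNA integrity and labelling, gave 2.45 and 2.48 there and 1.54 to 1.80 elsewhere. Results are therefore also given without replicate 1 where that matters. All 12 RPE markers were on the array, and their means over the arrays ran from 8.04 for Best1 to 14.71 for Ttr. Whether each lay above background was not tested. Markers of other cells were measured too, with photoreceptor markers at up to 14.41 for the arrestin gene Sag and macrophage markers at up to 13.52 for Csf1r. In such bulk samples fewer cells of a type and less RNA per cell cannot be told apart.

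Among the secreted ligands, Pros1, which encodes protein S, a vitamin K-dependent plasma protein and TAM ligand, was measured at 8.24, 8.01 and 8.19 in dark-adapted replicates 1, 2 and 3. In light-damaged replicates 1, 2 and 3 it was 8.70, 9.22 and 8.87. All 3 light-damaged arrays lay above all 3 dark-adapted ones, with a gap of 0.46 between the groups. The group means were 8.15 ± 0.12 (SD, n = 3) and 8.93 ± 0.27 (SD), which differ by 0.78 ± 0.15, a 1.72-fold rise, with a 95% interval of 1.34-fold to 2.21-fold (limma adjusted p = 0.0380). The pairs gave 0.46, 1.21 and 0.68. Without the replicate block the limma adjusted p was 0.251, and the call was also lost without replicate 2 (0.57 ± 0.14, limma adjusted p = 0.0583) and without replicate 3 (0.84 ± 0.20, limma adjusted p = 0.114). Without replicate 1 the difference was 0.95 ± 0.14 (limma adjusted p = 0.0122).

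The promoter of Pros1 is shown because it belongs to the 1 member that was called. It is the RefSeq stretch chr16:62854057-62854356 (GRCm38.p6, plus strand), 250 bases before to 50 after the annotated start, written 5′ to 3′, with matches to searched motifs in capitals.
Pros1: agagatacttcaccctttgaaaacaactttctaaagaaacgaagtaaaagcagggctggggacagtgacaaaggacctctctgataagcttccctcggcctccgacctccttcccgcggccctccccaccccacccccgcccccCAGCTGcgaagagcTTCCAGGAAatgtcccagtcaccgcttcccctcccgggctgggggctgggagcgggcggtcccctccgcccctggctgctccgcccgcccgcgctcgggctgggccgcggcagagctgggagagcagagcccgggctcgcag
The motifs, searched on both strands, were TTCNNNGAA for STAT factors, the interferon-stimulated response element, TGANTCA for AP-1 and CANNTG for E-box factors. The stretch held 1 STAT match, at bases 159 to 167, and 1 E-box match, at bases 145 to 150, which do not overlap. Of 32851 promoters of the same length, 8.30% held a STAT match and 72.3% an E-box match, while 3.44% held an interferon-stimulated response element and 7.81% an AP-1 match. All 9 measured genes had a promoter in the table. No STAT, interferon-stimulated response element or AP-1 letters were in the windows of the other 8, and E-box matches were in those of Gas6 (1), Mfge8 (1), Itgb5 (3) and Cd36 (2). A match describes the letters and does not show that a factor binds.

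Gas6, the other TAM ligand, was 10.69, 11.23 and 11.09 in dark-adapted replicates 1, 2 and 3 and 10.34, 11.31 and 11.04 in light-damaged ones. The groups overlapped throughout, and within both the replicate 1 array was lowest. Its difference was -0.10 ± 0.11, with a 95% interval of -0.37 to 0.16 (limma adjusted p = 0.701), 0.018 ± 0.094 without replicate 1 and -0.20 ± 0.14 without replicate 2. Mfge8, whose product bridges phosphatidylserine to integrin αvβ5, was 12.46, 12.41 and 12.14 in dark-adapted and 12.45, 12.42 and 12.65 in light-damaged replicates. The replicate 3 pair differed by 0.51, and the pairs of replicates 1 and 2 by -0.0049 and 0.0053. The fitted difference of Mfge8 was 0.17 ± 0.13 (limma adjusted p = 0.557), with an interval of -0.13 to 0.47, and 0.00021 ± 0.14 without replicate 3.

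The TAM ligands were compared within arrays, a comparison chosen after their values were seen. The log2 value of Pros1 minus that of Gas6 was -2.45, -3.22 and -2.89 in dark-adapted replicates and -1.64, -2.09 and -2.17 in light-damaged ones. These groups did not overlap, and the difference of 0.89 was positive in 3 of 3 pairs. In an exact two-sided permutation test that kept the pairs, over 8 assignments of sign, p was 0.25, the smallest that 3 pairs allow, and 0.25 after adjustment over the 2 such ratios tested. Over the 20 assignments that ignore the pairs the exact p was 0.10, the smallest they allow, and 0.20 after adjustment. This shows at most unequal change of the probe sets of both ligands.

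Among the receptor kinases none passed. Mertk was 10.28, 9.82 and 10.28 in dark-adapted replicates 1, 2 and 3 and 9.81, 9.82 and 9.74 in light-damaged ones. Dark-adapted replicate 2 was as low as the light-damaged arrays, and the groups were separated by only 0.0045. Its difference was -0.34 ± 0.13, or 0.791-fold with a 95% interval of 0.642-fold to 0.974-fold (limma adjusted p = 0.210). The pairs gave -0.47, -0.0045 and -0.54, so that the second pair carried almost none of it. Without replicate 2 it was -0.51 ± 0.13 (limma adjusted p = 0.0791), and without replicate 1 it was -0.27 ± 0.14 (limma adjusted p = 0.331).

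Axl, which binds GAS6 with high affinity and is also made by macrophages and vascular cells, was 8.10, 8.27 and 8.26 in dark-adapted and 8.09, 8.79 and 8.57 in light-damaged replicates. Light-damaged replicate 1 lay at the level of the dark-adapted arrays and the other light-damaged arrays above them. Its difference was 0.27 ± 0.12, with an interval of -0.02 to 0.56 (limma adjusted p = 0.290). It was 0.42 ± 0.10 without replicate 1 (limma adjusted p = 0.0609) and 0.15 ± 0.14 without replicate 2 (limma adjusted p = 0.715). Tyro3, the third TAM kinase, was 7.32, 7.26 and 7.29 in dark-adapted and 7.04, 7.14 and 7.30 in light-damaged replicates. Its groups overlapped, and the difference was -0.13 ± 0.10, with an interval of -0.37 to 0.10 (limma adjusted p = 0.542), -0.059 ± 0.094 without replicate 1 and -0.20 ± 0.14 without replicate 3. Mertk minus Axl within arrays, the other ratio chosen after seeing the values, was 2.18, 1.55 and 2.01 in dark-adapted and 1.72, 1.02 and 1.17 in light-damaged replicates. It was lower after light in 3 of 3 pairs, by a mean difference of -0.61, with groups that overlapped. The exact two-sided permutation p was 0.25 with the pairs kept and 0.20 without them, and adjustment left both as they were.

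**Figure D2:**
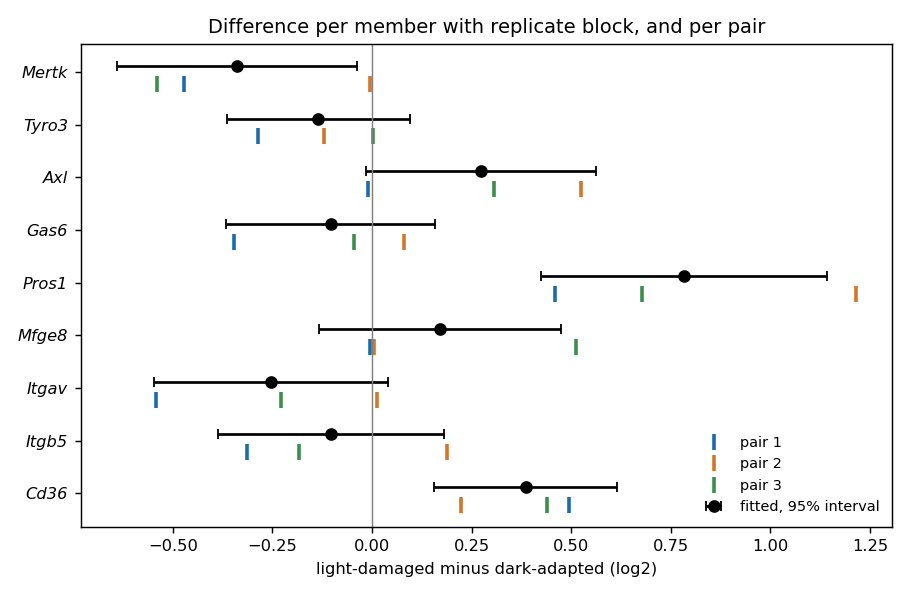
Light-damaged minus dark-adapted log2 difference of each gene: black points with 95% intervals are from limma with the replicate block, and coloured ticks are the 3 pairs. The intervals of Pros1 (0.42 to 1.14) and Cd36 (0.16 to 0.62) lie above 0 and that of Mertk (-0.64 to -0.04) below it, before adjustment over all genes, while the other 6 cross 0.

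The integrin subunits did not pass. Itgav, the αv subunit, was 13.50, 13.44 and 13.72 in dark-adapted and 12.96, 13.45 and 13.50 in light-damaged replicates. Light-damaged replicate 1 was the low array, and the other 2 light-damaged arrays lay within the dark-adapted range. The difference of Itgav was -0.25 ± 0.12, with an interval of -0.55 to 0.04 (limma adjusted p = 0.342). It was -0.11 ± 0.10 without replicate 1 and -0.39 ± 0.14 without replicate 2. Itgb5, the β5 subunit that defines the RPE's binding integrin, was 11.86, 11.64 and 11.69 in dark-adapted and 11.55, 11.83 and 11.50 in light-damaged replicates. Its pairs went both ways, at -0.31, 0.19 and -0.18, and the fitted difference was -0.10 ± 0.12, with an interval of -0.39 to 0.18 (limma adjusted p = 0.729). Without replicate 1 it was 0.0026 ± 0.12 and without replicate 2 it was -0.25 ± 0.13.

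Cd36, the scavenger receptor gene, was 5.07, 5.33 and 5.34 in dark-adapted and 5.56, 5.55 and 5.78 in light-damaged replicates. All light-damaged arrays lay above all dark-adapted ones, by a gap of 0.22. Its difference was 0.39 ± 0.10, or 1.31-fold with an interval of 1.11-fold to 1.53-fold, and missed the threshold (limma adjusted p = 0.0826). Among the alternatives it passed only with estimated array weights, at 0.39 ± 0.08 (limma adjusted p = 0.0239). With a pseudocount of 16 it was 0.28 ± 0.08 (limma adjusted p = 0.135). The mean of all its probe sets gave 0.25 ± 0.09 (limma adjusted p = 0.213). Without the replicate block the limma adjusted p was 0.691. The Cd36 values were dim: the 25th percentile of genes lay at 6.83 to 7.02 on these arrays. RMA compresses differences near background, and whether Cd36 was above background was not tested. Groups that did not overlap were found for Pros1, Cd36 and Mertk, 3 of 9 genes, against 10.3% of all genes.

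Further probe sets checked these values. The 9 genes had 21 probe sets, of which 12 were others than the brightest, spread over 6 genes, whereas Pros1, Mertk and Mfge8 had 1 each, so the call for Pros1 has no second probe set. None of the 12 had an unadjusted p under 0.05, and 2 had the opposite sign to the brightest probe set, both of Itgav. The other probe sets of Cd36 gave 0.29 ± 0.15 and 0.06 ± 0.09, the second of Axl 0.03 ± 0.08, that of Gas6 -0.0093 ± 0.08 and that of Tyro3 -0.06 ± 0.09. All 4 probe sets of Itgb5 were below 0, the other 3 at -0.24 ± 0.15, -0.21 ± 0.13 and -0.17 ± 0.14. Its brightest probe set is of the x_at kind, which can bind related transcripts.

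**Figure D3:**
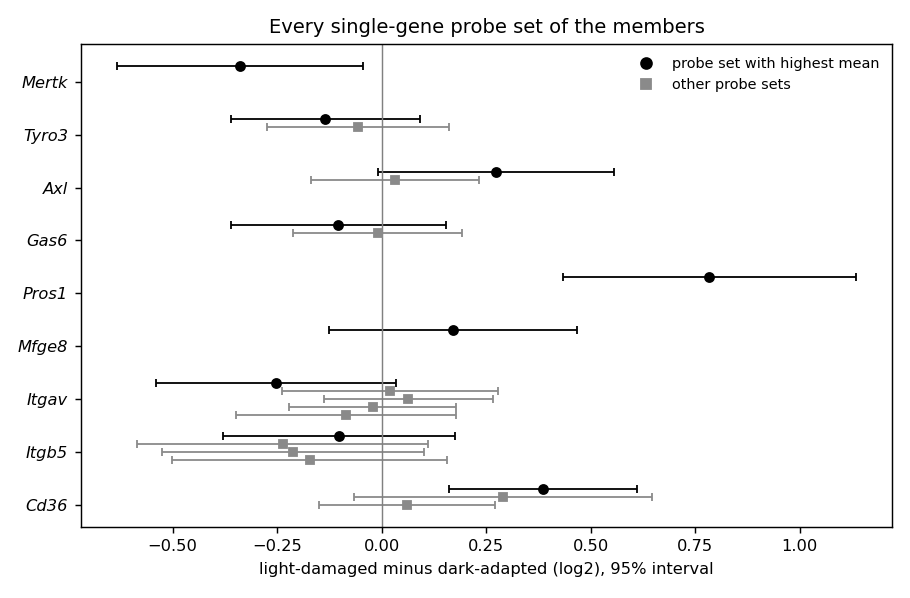
Light-damaged minus dark-adapted log2 difference with 95% interval for all 21 probe sets of the 9 genes, fitted by limma with the replicate block over 34945 probe sets. Black circles are the probe set with the highest mean and grey squares the others, and every grey interval includes 0.

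Other genes of engulfment were followed through 5 lists with 54 genes, all measured. Of these 10 rose and none fell (18.5% rising, against 3.07% of all genes), and their median difference was -0.03. Without the block limma called none of them, and 0.0495% of all genes. An unadjusted p under 0.05 was then found for 9 of the 54, against 5.94% of all genes. Of 10 other ligands and bridges, 3 rose. Lgals3, galectin-3, described as a further MERTK ligand, rose 1.93-fold (0.95 ± 0.14, limma adjusted p = 0.0165). Cd47, the signal that restrains phagocytes, rose 1.74-fold (0.80 ± 0.12, limma adjusted p = 0.0182), and Anxa5, which binds phosphatidylserine, rose 1.70-fold (0.76 ± 0.11, limma adjusted p = 0.0157). The 4 dimmer Cd47 probe sets gave 0.025 to 0.15, with the probe set of highest variance Cd47 was 0.025 ± 0.21, and with the mean of all its probe sets 0.23 ± 0.10 (limma adjusted p = 0.275).

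Of 15 other receptors, 3 rose: Msr1, a macrophage scavenger receptor, 2.72-fold (1.44 ± 0.08, limma adjusted p = 0.00101), Cd14, a coreceptor for bacterial lipopolysaccharide, 2.23-fold (1.16 ± 0.12, limma adjusted p = 0.00653), and Stab1, a phosphatidylserine receptor of macrophages, 1.40-fold (0.49 ± 0.10, limma adjusted p = 0.0429). The 4 probe sets of Msr1 ranged from 0.73 to 2.31, each called over all probe sets. Neither protease that can shed MERTK from the cell surface passed, Adam10 at -0.29 ± 0.19 and Adam17 at 0.09 ± 0.12. Of 17 genes of signalling and actin, Plcg2, a phospholipase downstream of immune receptors, rose 1.46-fold, Vav1, a guanine exchange factor of blood cells, 1.45-fold and Rhoa, a GTPase that controls actin, 1.36-fold. Their limma adjusted p-values were 0.0355, 0.0319 and 0.0455. With quantile normalization Plcg2 and Stab1 lost their calls (limma adjusted p = 0.0544 and 0.0532), and with median centring Rhoa did (0.42 ± 0.09, limma adjusted p = 0.0567). Rhoa also lost its call with the mean of its probe sets (0.29 ± 0.08, limma adjusted p = 0.122), with its probe set of highest variance (0.31 ± 0.13, limma adjusted p = 0.285) and with a variance trend in limma (adjusted p = 0.053). Stab1 lost its call with the gene table built on the highest variance and without replicate 1 (limma adjusted p = 0.0504 and 0.0564). Of 10 motor and phagosome genes, Myh9, the heavy chain of non-muscle myosin IIA, rose 1.73-fold (0.79 ± 0.09, limma adjusted p = 0.00894), and its 4 dimmer probe sets gave 0.23 to 0.87. In place of 10 that rose and 0 that fell, 11 rose and 2 fell without replicate 1, 7 rose and 2 fell without replicate 2, and 2 rose and 0 fell without replicate 3. Of the 10 called with all pairs, 9, 7 and 2 kept their call in these fits. Over all genes, 830, 551 and 222 of the 908 called with all pairs kept theirs. Plcg2, Vav1 and Rhoa were the genes lost without replicate 2 (limma adjusted p = 0.0651, 0.0675 and 0.176). Without replicate 3 only Msr1 and Cd14 kept their call. Lgals3, Anxa5, Myh9 and Cd47 were among those lost (limma adjusted p = 0.102 for Cd47).

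**Figure D4:**
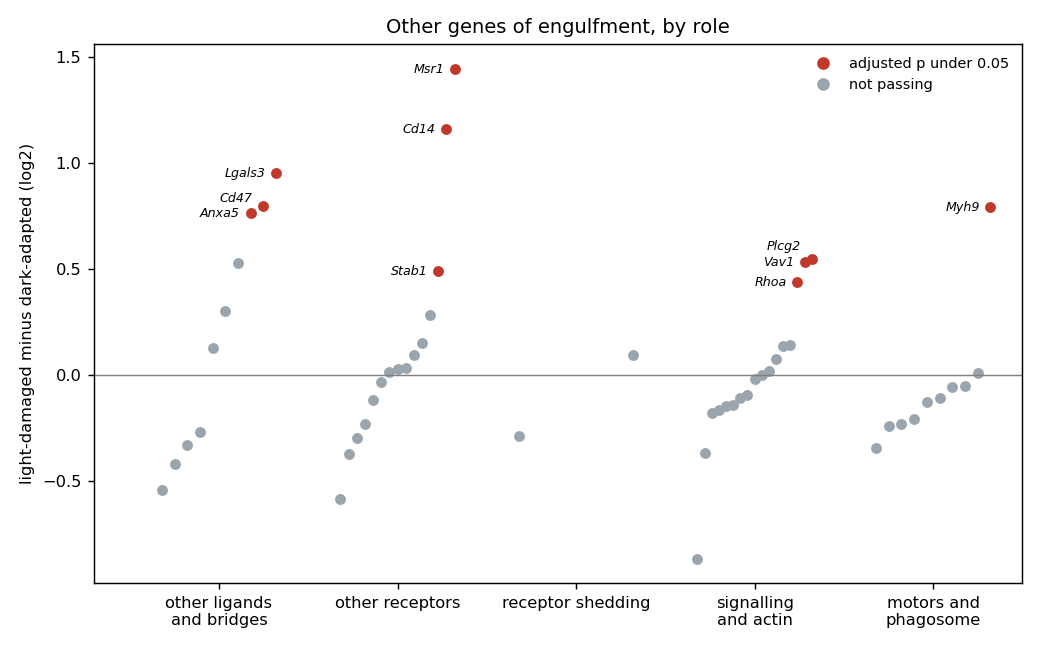
Light-damaged minus dark-adapted log2 difference (limma with replicate block) of 54 other genes of engulfment, arranged by role and sorted within each role. Red points with names are the 10 genes with an adjusted p under 0.05, all above 0, and the largest is Msr1 at 1.44.

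Markers of other cells moved beside these genes. For the counts that follow, 3.07% of all genes were called as rising and 1.92% as falling. Of 16 macrophage and microglia markers 13 rose and none fell, led by Cd68 (2.11 ± 0.11) and Lyz2 (1.13 ± 0.09), with 8 called when either replicate 2 or replicate 3 was left out. By sign 14 lay above 0 and 2 below, P2ry12 (-0.34 ± 0.09, limma adjusted p = 0.101) and Csf1r (-0.15 ± 0.09, limma adjusted p = 0.454). Both were lower after light in every pair, and Tmem119, also not called, was at 0.03 ± 0.09. Csf1r was the brightest of the 16. The sum of the linear values of all 16 markers, relative to the mean of the dark-adapted arrays, was 0.88 to 1.20 in dark-adapted and 1.28 to 1.76 in light-damaged arrays. RMA values have no zero, and the dimmest macrophage marker, P2ry12, had a mean of 6.55, below the 25th percentile of genes on each array. Of 12 RPE markers 3 fell and none rose, with Rrh at -0.82 ± 0.09 and Lrat at -0.69 ± 0.11, and their relative sum went from 0.90 to 1.14 down to 0.62 to 0.87. Of 12 photoreceptor markers measured 7 fell, with Opn1sw at -1.72 ± 0.15 and Arr3 at -0.92 ± 0.10, and the relative sums were 0.84 to 1.11 and 0.61 to 0.90. Of 11 markers of pericytes and fibroblasts 3 rose, including Col3a1 (0.82 ± 0.13) and Pdgfra (0.73 ± 0.13), and of 10 endothelial markers Vwf rose (0.68 ± 0.11) and Cdh5 was next by p (0.27 ± 0.09, limma adjusted p = 0.164). With the mean of their probe sets Pdgfra (0.36 ± 0.08, limma adjusted p = 0.0616) and Lrat (-0.75 ± 0.16, limma adjusted p = 0.0598) lost their calls. Lrat also lost its call with its probe set of highest variance (-0.81 ± 0.24, limma adjusted p = 0.121). Of 8 Müller glia markers 4 lay above 0 and 4 below. Gfap rose (0.74 ± 0.11), and Apoe, next by p, was at -0.39 ± 0.10 (limma adjusted p = 0.0876). Without the block limma called no marker of any of the 6 lists. An unadjusted p under 0.05 was then found for 9 macrophage, 4 RPE, 5 photoreceptor, 1 pericyte or fibroblast, 1 endothelial and 1 Müller glia marker. Of all genes, 5.94% had such a p in that fit. Without replicate 3 the counts were 0 for RPE, 3 for photoreceptor markers and 0 for pericytes and fibroblasts, endothelium and Müller glia. Without replicate 2 they were 5 for RPE, 3 for photoreceptors and 1 for pericytes and fibroblasts, for which 6 rose without replicate 1. The part of such shifts in the values of Pros1, Cd36, Mertk and the 10 pathway genes was not tested.

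**Figure D5:**
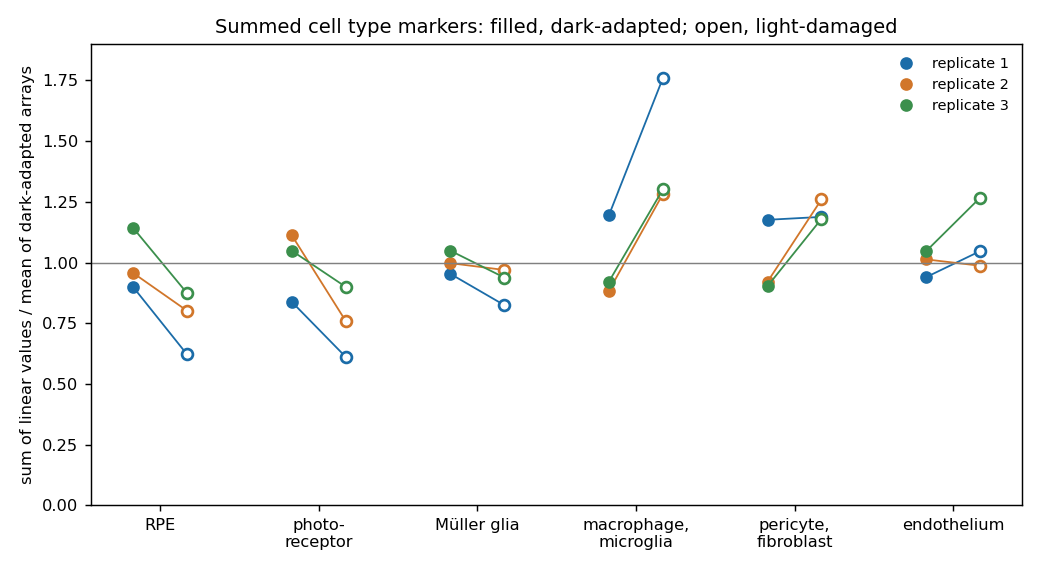
Sum of the linear values of each cell type's markers per array, divided by the mean of the 3 dark-adapted arrays, with filled points for dark-adapted and open points for light-damaged arrays of the same replicate number. After light the macrophage and microglia sum and the pericyte and fibroblast sum are higher in 3 of 3 pairs, the endothelial sum is higher in 2 of 3, and the RPE, photoreceptor and Müller glia sums are lower in 3 of 3.

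The genes whose log2 values followed those of Pros1 most closely over the 6 arrays were Surf4, a cargo receptor of the endoplasmic reticulum (r = 0.992), the sialic acid synthase gene Nans (r = 0.991), S100a4 (r = 0.990), Phlda3 (r = 0.990) and Stt3a, a catalytic subunit of N-glycosylation (r = 0.987). Of these S100a4 rose, by 2.12 ± 0.24 (limma adjusted p = 0.00725), and the other 4 had differences of 0.35 to 0.47 that did not pass. For Mertk they were Ermard (r = 0.997), the dicarboxylate transporter gene Slc13a3 (r = 0.989), an immunoglobulin kappa variable segment (r = 0.976), the thyroid hormone transporter gene Slco1c1 (r = 0.974) and Pank1 (r = 0.971), a pantothenate kinase. None of these 5 passed. These correlations are the highest among 18193 genes over 6 arrays that share groups and replicates, and they are given as a description.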

How the data were processed

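The deposited file gives log2 expression per probe set for 6 arrays. Per the submitters' processing notes the authors used RMA, a method of background correction, normalization between arrays and summary of probes, with no version named. That the scale is log2 was read from the values (3.72 to 14.82, array medians 7.43 to 7.48). RMA compresses differences near background and saturation. Of 45101 probe sets, 64 were controls, 34945 had 1 gene symbol in the platform annotation, 932 several and 9160 none given here. The gene table of GRCm38.p6 held the Entrez numbers of 34741, and 0 symbols differed. Each of 18193 genes was represented by its probe set with the highest mean over all arrays.

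Light-damaged and dark-adapted arrays were compared by limma 3.58.1 (R 4.3.3; lmFit, eBayes, two-sided, Benjamini-Hochberg adjustment over all genes), with the replicate number as a block and 2 residual degrees of freedom. The code was tested on simulated data. Replicates are numbered 1 to 3 in both groups, and the labels do not state what a number shares. Equal numbers were taken as pairs by a rule set beforehand. Over genes, the deviations from the group mean of arrays with equal number had correlations of 0.888, 0.624 and 0.859, all above the bound of 0.1. The replicate 1 array stood apart in both groups, and the bound cannot separate pairing from that. Replicates 2 and 3 are paired less surely. The correlation was 0.654 between replicate 2 in the dark and replicate 3 after light, and 0.608 between replicate 3 in the dark and replicate 2 after light. These also exceed the bound, so it cannot tell which of replicates 2 and 3 belong together. The replicate 3 minus replicate 2 differences in the dark and after light had a correlation of 0.333. Counts of calls, and the value of Pros1, are also given without the block.

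Members and lists were chosen with earlier results of these data known, so no list was tested. Named were all members, the called pathway genes, up to 4 per list, or else the 2 with the smallest p, the 2 such genes of each marker list, and the 5 genes most alike Mertk and Pros1. Alternatives covered the block, normalization, leaving out dim genes, adding a pseudocount of 16, the choice of probe set, limma settings, array weights and each pair left out. Promoters are RefSeq's.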

Additional observations from a re-analysis of the deposited data

How the results depend on the processing

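Pros1 was above 0 under all 14 alternatives, between 0.57 and 0.95, and kept its call in 10. With no replicate block it was 0.78 (limma adjusted p = 0.251), and with a pseudocount of 16 it was 0.75 (limma adjusted p = 0.0517). Leaving out a pair gave 0.57 to 0.95. The members called were 0 with no replicate block, 0 with the pseudocount, 2 with array weights and 0 to 1 without a pair. The pathway genes called were 0 with no replicate block, 2 to 13 without a pair and 6 without replicate 1 and with no replicate block. Over all genes, 908 were called, 9 with no replicate block, 1875 with array weights, and 228 without replicate 3, the fewest of the fits that leave out a pair, the most being 1245. The cause of these shifts was not tested. Without a pair, Gas6 ranged from -0.20 to 0.018, Itgb5 from -0.25 to 0.0026, Adam10 from -0.47 to 0.025 and Adam17 from -0.034 to 0.23. The values above 0 of the first 3 were those without replicate 1, with or without the block, against -0.10, -0.10 and -0.29 with all arrays, and that below 0 of Adam17 was without replicate 2. Mertk, Tyro3, Axl, Mfge8, Itgav and Cd36 kept their sign under every alternative run for them. The filter on dim genes left 6 of the 9 members to test, so it gave no value for Cd36, Axl or Tyro3. The number of arrays limits the precision.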

Other observations

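Some genes of engulfment that did not pass with all pairs did so when a pair was left out, and they are named here after their values were seen. Without replicate 1, Anxa1 and Anxa2, which encode calcium-dependent phospholipid-binding annexins, rose by 0.82 ± 0.16 and 0.53 ± 0.11 (limma adjusted p = 0.0323 and 0.0367). In the same fit Gulp1, an adaptor of engulfment receptors, fell by 0.45 (limma adjusted p = 0.0481) and Scarb1, a lipoprotein and phosphatidylserine receptor, fell by 0.50 (limma adjusted p = 0.0360). Without replicate 2, Gulp1 fell by 1.13 (limma adjusted p = 0.0338) and Itgb8, the β8 integrin subunit, fell by 0.75 (limma adjusted p = 0.0338). With all pairs at equal weight none of these 5 genes passed, and Gulp1 was at -0.87 ± 0.25 and Itgb8 at -0.59 ± 0.15. Anxa1 was then at 0.53 ± 0.22 (limma adjusted p = 0.254), Anxa2 at 0.30 ± 0.16 (0.393) and Scarb1 at -0.37 ± 0.12 (0.145). For Anxa1 and Anxa2 the replicate 1 pair went the other way, at -0.07 and -0.16. For Gulp1 the pairs gave -1.71, -0.34 and -0.55, and for Itgb8 -0.99, -0.26 and -0.50. In both genes the replicate 1 pair fell most. The dimmer probe set of Anxa1 gave 0.08 ± 0.09, and those of Anxa2 gave 0.11 ± 0.11 and 0.12 ± 0.09. For Gulp1 a dimmer probe set gave -0.39 ± 0.10 and the dimmest 0.11 ± 0.15.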
